A study of Mus musculus with 9 samples.

Results

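The 9 genes described here belong to the amino acid and endoplasmic reticulum stress response centred on the transcription factor Atf4. They were taken as the probe sets (groups of short probes on an Affymetrix array) whose annotation names 1 of these genes alone, which gave 17 probe sets of 20380 that name a single gene, and 9 genes of 12393 in all. Chac1 was included because its fall had been noted in these same arrays, so its values are given as a description with no test. The other 8 genes are Atf4 itself and known partners or targets of it. Whole skin was taken 30 days after birth from mice whose background mixes the strains C57BL, DBA and FVB, and RNA of pools was hybridised to 9 arrays. Transgenic lines L60, L84 and LA had 2 pools each, and control mice LC had 3. The series title concerns constitutively active Akt, but the labels give neither the transgene of each line, nor the promoter that drives it, nor the number of mice in a pool. Since nothing says that pools of a genotype shared no mice, p-values measure only the spread between these pools.

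When amino acids run short or misfolded proteins build up in the endoplasmic reticulum, kinases phosphorylate the initiation factor eIF2 alpha, which slows most translation and favours that of Atf4. Atf4 then raises genes for amino acid uptake and synthesis, together with the regulators Atf3, Ddit3 (also called CHOP) and Trib3. In skin, the dividing and keratin-filling cells of the hair follicle make much protein, and hair proteins are rich in cysteine, the amino acid whose uptake, synthesis and storage in glutathione involve several of the genes below.

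Many Atf4 targets carry, near their start, a composite site for C/EBP and ATF factors whose core is TGATGNAA. Promoter windows from RefSeq (GRCm38.p6), running from 250 bases before to 50 bases after the start, were searched for this core on both strands. The windows of 5 of the 9 genes held it (Chac1, Trib3, Asns, Atf3 and Slc7a11), against 3.97% of 32851 windows of 300 bases. The windows of 3 genes are shown because they span the range of scores described below: Chac1 scored lowest in L84, Asns scored lowest in LA, and Slc7a11 had no line standing apart from LC. Capitals mark the core on either strand, and each sequence reads 5′ to 3′ along the gene.
Chac1, chr2:119350992-119351291, plus strand: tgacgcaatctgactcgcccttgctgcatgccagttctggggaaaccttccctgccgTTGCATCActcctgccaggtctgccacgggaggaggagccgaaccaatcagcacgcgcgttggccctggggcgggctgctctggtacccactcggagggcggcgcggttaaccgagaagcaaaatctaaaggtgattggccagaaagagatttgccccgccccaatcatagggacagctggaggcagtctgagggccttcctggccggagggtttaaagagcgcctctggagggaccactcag
Asns, chr6:7693160-7693459, minus strand: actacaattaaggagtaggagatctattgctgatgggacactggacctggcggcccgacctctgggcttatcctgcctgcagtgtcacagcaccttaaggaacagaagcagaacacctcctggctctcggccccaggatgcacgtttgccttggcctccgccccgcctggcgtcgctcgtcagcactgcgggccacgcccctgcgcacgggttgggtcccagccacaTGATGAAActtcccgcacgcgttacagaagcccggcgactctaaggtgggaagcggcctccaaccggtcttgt
Slc7a11, chr3:50443564-50443863, minus strand: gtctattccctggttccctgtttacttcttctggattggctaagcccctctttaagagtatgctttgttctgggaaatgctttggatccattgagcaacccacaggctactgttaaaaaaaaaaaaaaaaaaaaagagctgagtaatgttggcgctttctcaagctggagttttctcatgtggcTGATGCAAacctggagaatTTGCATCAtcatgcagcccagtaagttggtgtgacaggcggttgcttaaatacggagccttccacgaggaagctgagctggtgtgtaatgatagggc
The first base of the match lay at -193 from the start in Chac1 and at -23 in Asns, and Slc7a11 held a pair of matches, at -66 and -47. No core was found in these windows of Atf4, Ddit3, Phgdh and Psat1. A match is a string of letters and was not tested as a binding site.

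The deposited values are scores, standardised for each probe set to mean 0 and SD 1 over the 9 arrays. A gene's score is the mean over its probe sets, and a difference is counted in SDs of those probe sets over the arrays, so it gives neither an expression level nor a fold, and scores cannot be set against each other between genes. For the same reason the presence of skin markers could not be checked as a level. No filter on low values was used, and all 9 genes entered the fit. Probe sets for 18S ribosomal RNA averaged 0.339 to 2.09 on LC 1, L60 1 and L84 1 and -0.642 to -0.528 on the other arrays, and the SD of scores over genes was 1.2 on LA 2 and 1.13 on L84 1, against 0.676 to 0.836 on the remaining arrays. The control probe set for the 3′ end of Gapdh scored -1.81 on L60 1 and -1.49 on LC 1 but 1.11 on L84 1. It scored 0.102 to 0.948 on the other arrays, so L84 1 was unlike LC 1 and L60 1 by this control. The score of Xist, which silences an X chromosome in females, lay between -1.06 and -0.822 for array 1 of each genotype and between 0.077 and 1.48 elsewhere, and its part in the results was not tested. In a bulk extract of skin, fewer cells of a type and less RNA per cell cannot be told apart.

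Chac1, which encodes an enzyme that breaks down glutathione and is a well-known target of the Atf4, Atf3 and Ddit3 axis, stood lower in all 3 lines than in LC. It scored -0.311 on both L60 arrays, -1.15 and -0.909 on the L84 arrays and -0.48 and -0.689 on the LA arrays, against 1.37, 1.27 and 1.2 on the LC arrays. All 6 transgenic arrays lay below all 3 control arrays, and the arrays of the 3 lines did not overlap each other. The order of the levels was therefore L84, LA, L60 and LC, low to high, but LA 1 lay closer to the L60 arrays than to LA 2, and L84 2 lay closer to LA 2 than to L84 1. Differences from LC were -1.59 in L60, -2.31 in L84 and -1.87 in LA. They ranged from -1.63 to -1.55, from -2.43 to -2.19 and from -1.97 to -1.76 when each array was left out in turn. Between L84 1 and LC 1, both high in 18S but far apart in the Gapdh control, the difference was -2.52. It was -2.15 between L84 2 and the mean of LC 2 and LC 3. For L60 the same comparisons gave -1.68 and -1.55. The single Chac1 probe set had tied values on the L60 arrays, so these 2 pools show no spread for it.

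**Figure D1:**
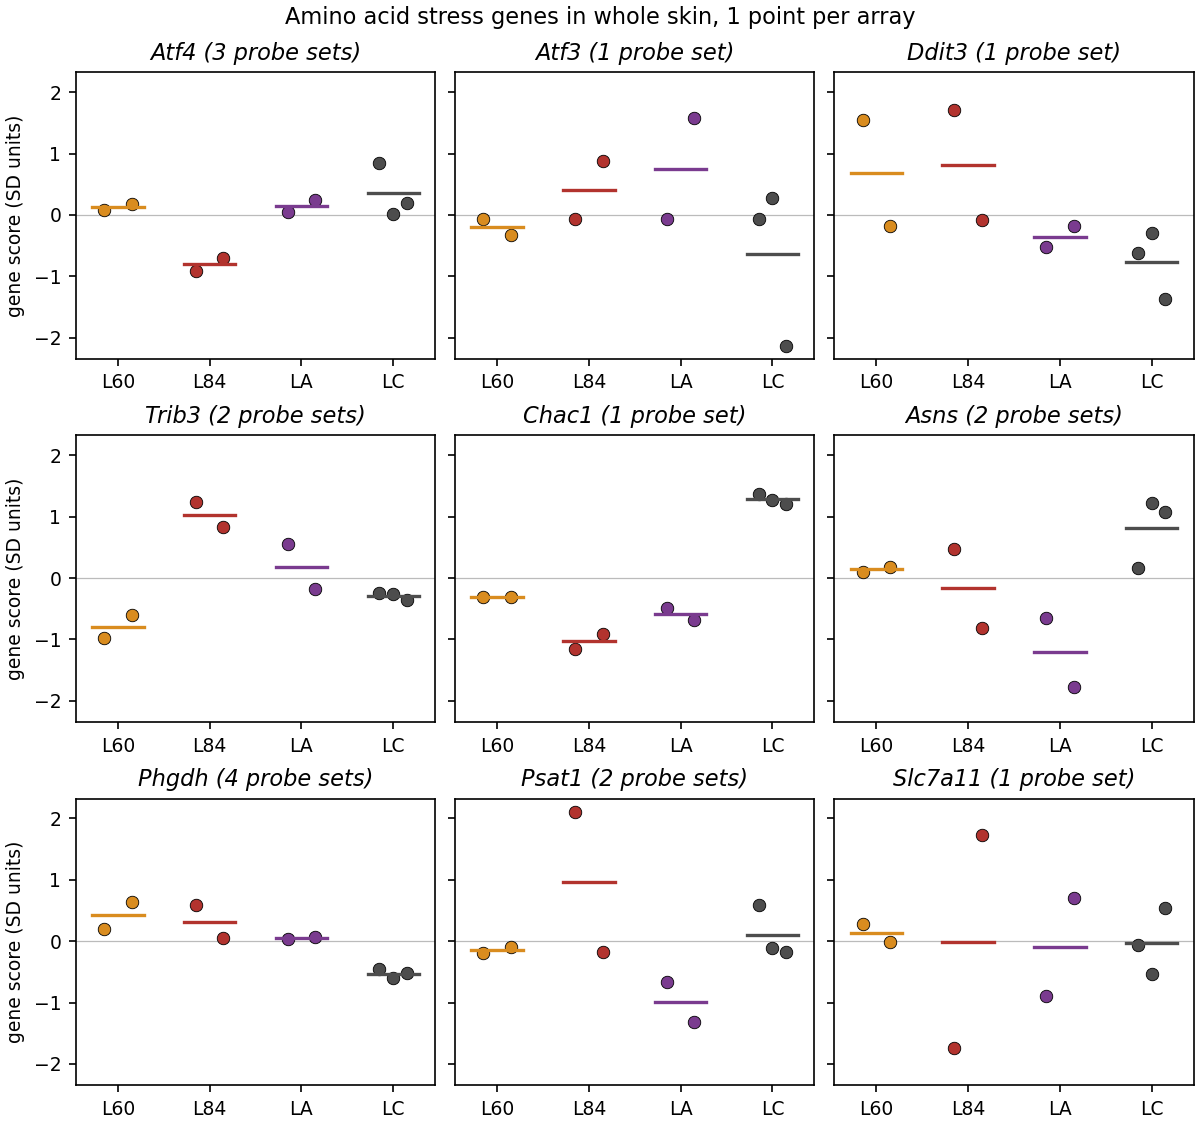
Gene score (SD units, vertical axis) of each of the 9 genes on every array, grouped by L60, L84, LA and LC; a point is 1 array and a bar the mean of the group. The 6 transgenic arrays of Chac1 lie at -0.311 or lower and its 3 LC arrays at 1.2 or higher, while in Atf3 and Slc7a11 every line overlaps LC.

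The 8 genes other than Chac1 did not pass the test in any line. With a linear model in limma (variances not moderated, Benjamini-Hochberg adjustment over all genes), 0 of 8 were called in L60, L84 and LA against LC (adjusted p under 0.05), where 0%, 0.565% and 1.8% of 12393 genes were called. At an unadjusted p under 0.05 there were 1, 3 and 2 of 8, against 4.72%, 12.2% and 20.8% of all genes. With limma's moderated variance 0 of 8 were called as well. An F test over the 4 genotypes called 0 of 8, with 0.734% of all genes called. The groups did not overlap for 3 of 8 genes in L60, 4 of 8 in L84 and 4 of 8 in LA, where 25.1%, 28.5% and 48.8% of all genes did not overlap. The median difference of the 8 genes was -0.0351 in L60, 0.856 in L84 and 0.167 in LA, beside 0.0777, 0.00308 and 0.247 over all genes. All comparisons with LC share the same 3 control arrays.

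Atf4 itself, the transcription factor at the head of the response, stood lower in L84 than in LC, and its 3 probe sets did not rank the arrays alike. Its gene score was 0.0794 and 0.177 in L60, -0.906 and -0.701 in L84 and 0.051 and 0.24 in LA, against 0.85, 0.0198 and 0.191 in LC. Both L84 arrays lay below all other arrays, and the L60 and LA arrays lay within the range of LC. The L84 difference was -1.16 ± 0.267 (SE, n = 2 and 3) and did not pass (limma, adjusted p = 0.216), and those of L60 and LA were -0.225 and -0.208 with the same SE (adjusted p = 1 and 0.664). All 3 probe sets differed downwards in L84, by -1.25, -0.723 and -1.5, but taken singly the first and the third overlapped LC there. On L84 1 and L84 2 the first scored 0.202 and -0.944, and the third scored -2.38 and 0.022. The narrow spread of the L84 gene score therefore joins low values of different probe sets on each array. In LA the 3 probe sets differed by -1.9, 1.58 and -0.306, so the LA mean near that of LC joins probe sets of opposite sign. Pairs of Atf4 probe sets correlated at -0.268 to 0.0247 over the 9 arrays.

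The stress regulators downstream of Atf4 came next. Ddit3, a transcription factor of the C/EBP family that promotes cell death under lasting stress, scored 1.55 and -0.176 in L60, 1.7 and -0.0836 in L84 and -0.529 and -0.176 in LA, against -0.613, -0.3 and -1.37 in LC. Its L60 and L84 arrays all lay above the LC arrays, but within each of these lines 1 array was far above the other. In both lines it was the array high in 18S (means of 2.09 on L60 1 and 0.339 on L84 1). LC 1, also high in 18S (mean of 1.13), scored -0.613, between the other LC scores of -0.3 and -1.37. L60 1 and L84 1 were also low in Xist, as were LA 1 and LC 1, which scored -0.529 and -0.613 for Ddit3. Differences were 1.45 ± 0.791 in L60, 1.57 ± 0.791 in L84 and 0.41 ± 0.791 in LA (limma, adjusted p = 1, 0.523 and 0.782). Among the arrays low in 18S the L60 and L84 differences were 0.661 and 0.753, and between L60 1 or L84 1 and LC 1 they were 2.16 and 2.32. Whether 18S or Xist bears on the Ddit3 score was not tested further.

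Atf3, a transcription factor induced by many stresses, scored -0.0669 and -0.327 in L60, -0.0669 and 0.876 in L84 and -0.0669 and 1.6 in LA, against -0.0669, 0.28 and -2.13 in LC. Every line overlapped LC, and 4 arrays, the first of each genotype, held the same value. The low mean of LC came from LC 3 alone. Differences of 0.444, 1.05 and 1.4 in L60, L84 and LA, each ± 0.933, did not pass (limma, adjusted p = 1, 0.716 and 0.429), and without LC 3 they were -0.302, 0.3 and 0.649. The L84 difference was 0.574 without L84 2, and that of LA was 0.574 without LA 2.

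Trib3, a pseudokinase that Atf4 and Ddit3 induce and that has been reported in liver to bind Akt and inhibit it, had lines on either side of LC. It scored -0.982 and -0.599 in L60, 1.24 and 0.827 in L84 and 0.551 and -0.179 in LA, against -0.243, -0.255 and -0.36 in LC. Both L60 arrays lay below LC, and all L84 and LA arrays above it. Differences were -0.504 ± 0.269, 1.32 ± 0.269 and 0.472 ± 0.269 in L60, L84 and LA (limma, adjusted p = 1, 0.176 and 0.369). That of LA was 0.107 without LA 1 and 0.837 without LA 2, and that of L60 was -0.313 without L60 1. Its probe sets correlated at 0.033 with each other and each put a different L84 array on top: the first scored -0.0748 and 2.09 on L84 1 and L84 2, and the second scored 2.55 and -0.433. The narrow spread of the L84 gene score therefore joins a high value of a different probe set on each array. The second probe set differed by 0.0112 in L60, so the L60 difference rested on the first (-1.02).

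**Figure D2:**
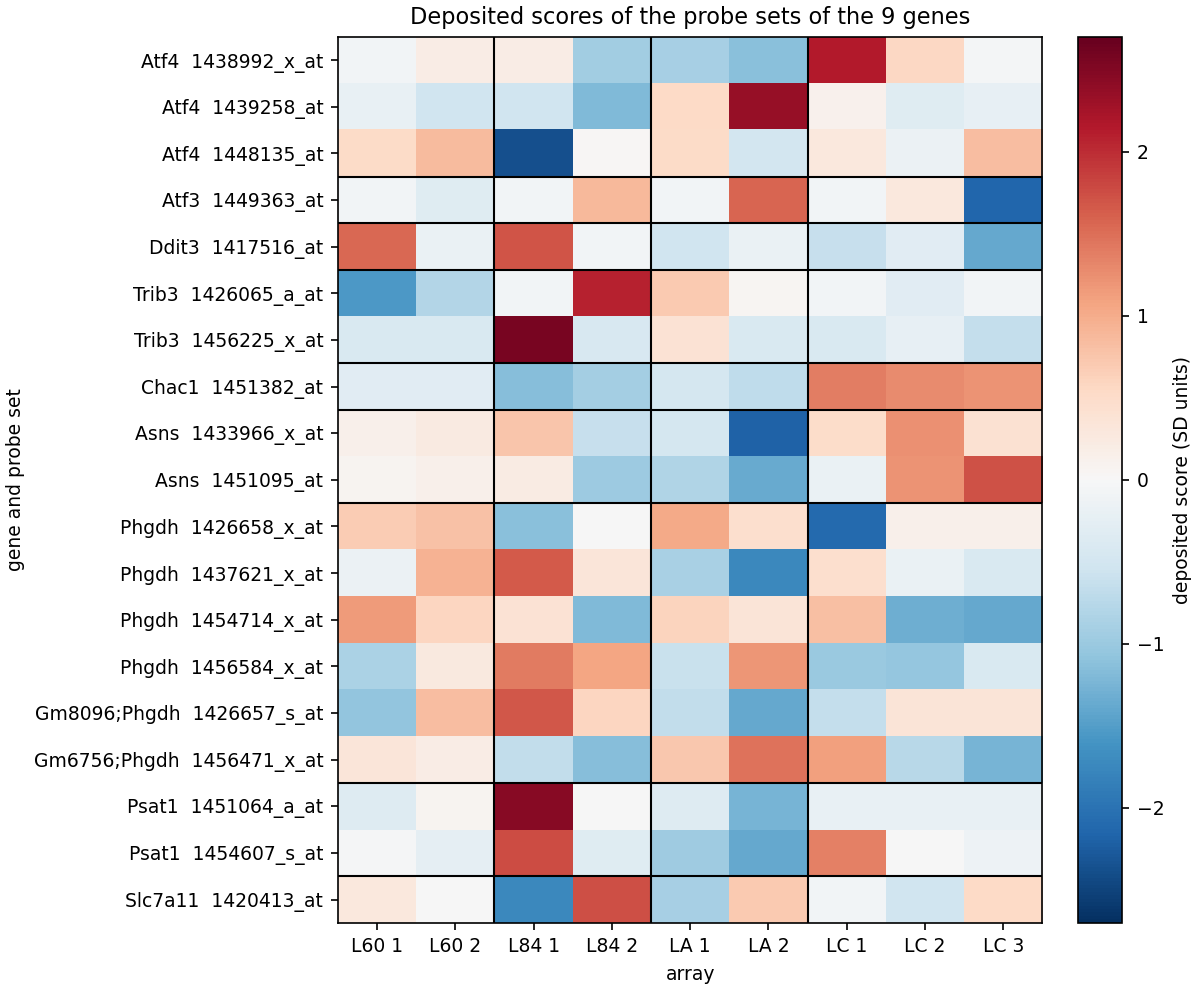
Deposited score (colour, SD units) of every probe set of the 9 genes (rows) on the 9 arrays (columns, by line and LC), including the 2 that name Phgdh together with a second gene. The pairs of rows of Asns and of Psat1 resemble each other, while the rows of Atf4, Trib3 and Phgdh do not.

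Asns, the enzyme that makes asparagine and a standard readout of amino acid limitation, stood lowest in LA. Its score was 0.104 and 0.186 in L60, 0.48 and -0.806 in L84 and -0.644 and -1.77 in LA, against 0.158, 1.22 and 1.07 in LC. Both LA arrays lay below all LC arrays, and the other lines overlapped LC. The LA difference of -2.02 ± 0.596 did not pass (limma, adjusted p = 0.159), with a 95% interval of -3.56 to -0.493, and it lay between -2.59 and -1.46 when single arrays were left out. The 2 probe sets correlated at 0.785 and differed by -2.05 and -2 in LA. The differences of L60 and L84 were -0.672 and -0.979 (adjusted p = 1 and 0.598). That of L84 was -1.95 among the arrays low in 18S and 0.322 between L84 1 and LC 1.

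Phgdh and Psat1 catalyse successive steps of serine synthesis from a glycolytic intermediate. Phgdh scored 0.205 and 0.645 in L60, 0.585 and 0.0488 in L84 and 0.0333 and 0.066 in LA, against -0.459, -0.603 and -0.521 in LC. All 6 transgenic arrays lay above all 3 LC arrays. Differences were 0.953 ± 0.204 in L60, 0.844 ± 0.204 in L84 and 0.577 ± 0.204 in LA, and none passed (limma, adjusted p = 0.667, 0.233 and 0.212). The 4 probe sets behind this mean correlated at -0.495 to 0.176 with each other. In L84 they differed by 0.0397, 1.04, 0.239 and 2.06, and in LA by 1.34, -1.26, 1.11 and 1.12. All 4 carry the suffix that Affymetrix gives to probe sets whose probes may also match other genes, and 2 further probe sets name Phgdh with Gm8096 or Gm6756, so the Phgdh score is uncertain. The same suffix is on a probe set each of Asns, Atf4 and Trib3, among them the second Trib3 probe set above.

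Psat1 scored -0.19 and -0.0862 in L60, 2.11 and -0.171 in L84 and -0.659 and -1.3 in LA, against 0.588, -0.105 and -0.173 in LC. Both LA arrays lay below LC, and L84 1 stood above every other array. Differences of -0.242, 0.867 and -1.09 in L60, L84 and LA, each ± 0.728, did not pass (limma, adjusted p = 1, 0.698 and 0.428). Without L84 1 the L84 difference was -0.274.

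Slc7a11, the subunit that brings cystine into the cell in exchange for glutamate, showed no line apart from LC. It scored 0.279 and -0.0114 in L60, -1.74 and 1.73 in L84 and -0.9 and 0.704 in LA, against -0.0686, -0.541 and 0.546 in LC. The L84 arrays held its lowest and its highest score. Differences were 0.155, 0.0168 and -0.0755 in L60, L84 and LA, each ± 1.15 (limma, adjusted p = 1, 0.998 and 0.975). The 95% interval of the LA difference, -3.03 to 2.88, spans more than the whole range of its scores over the arrays, so these pools set no useful limit on a change.

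**Figure D3:**
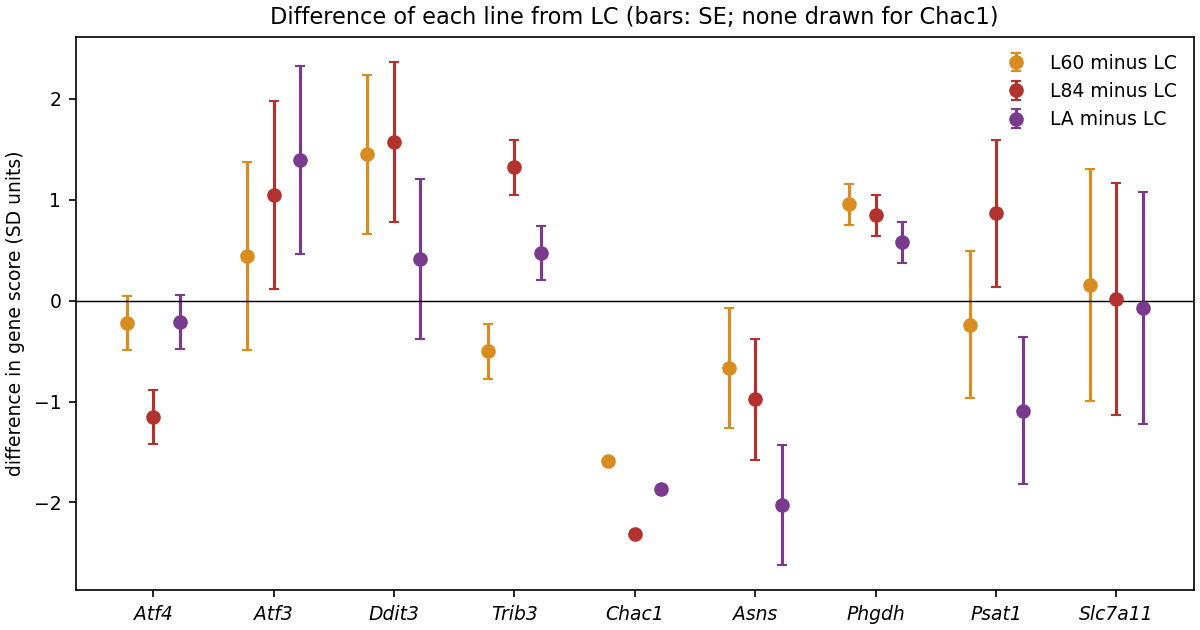
Difference in gene score between each line and LC (SD units, vertical axis) for the 9 genes; points are L60, L84 and LA minus LC, and bars are the SE of the fit, with none drawn for Chac1, which was chosen for its fall. Chac1 (from -2.31 to -1.59), Asns (from -2.02 to -0.672) and Atf4 lie below 0 in all 3 lines, Phgdh, Ddit3 and Atf3 lie above 0 in all 3, and Trib3, Psat1 and Slc7a11 lie on both sides of 0; apart from Chac1, which was not tested, none passed the test.

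Between the lines, 0 of 8 genes were called in L84 against L60, in LA against L60 and in LA against L84, where limma's unmoderated test called 0.113%, 0.629% and 0.0161% of all genes and moderated variance called 0 of 8. At an unadjusted p under 0.05 there were 2, 1 and 2 of 8, against 8.03%, 16.2% and 10.6% of all genes. Trib3 was higher in L84 than in L60 by 1.82 ± 0.294 (adjusted p = 0.223) and higher in LA than in L60 by 0.976 ± 0.294 (adjusted p = 0.228), while LA differed from L84 by -0.847 ± 0.294 (adjusted p = 0.439). Atf4 differed by -0.932 ± 0.292 in L84 against L60 and by 0.949 ± 0.292 in LA against L84 (adjusted p = 0.505 and 0.404). Psat1 differed by -1.96 ± 0.798 in LA against L84 (adjusted p = 0.479). For Chac1 the values were -0.718 in L84 against L60, -0.273 in LA against L60 and 0.445 in LA against L84.

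The score of Chac1 ran close to those of hair fibre genes over the arrays. The genes most like it by Pearson correlation over 9 arrays were Krtap3-1 (0.986), Krtap9-3 (0.983), Krtap4-2 (0.979), Krtap1-5 (0.975), all keratin-associated proteins that cross-link the hair fibre, the hair keratin Krt36 (0.974), Gprc5d (0.966), a receptor of hair-forming cells, Atoh7 (0.963) and Drg2 (0.96). The most opposed were the protease Adam8 (-0.987), Igfbp3 (-0.968) and the epidermal keratins Krt5 (-0.967) and Krt10 (-0.951). Of 11 measured hair shaft keratins, correlations with Chac1 ran from 0.697 to 0.974 with a median of 0.911, and those of the other 8 genes from -0.843 (Phgdh) to 0.679 (Atf4) with a median of -0.281, beside a median of -0.0614 over 12122 genes. These points share the 4 genotypes, and a gene chosen for a fall in 3 lines will resemble any gene with that pattern, so the correlations are descriptions.

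Hair shaft keratins as a list averaged 0.21 and 0.199 on the L60 arrays, -0.901 and -0.928 on the L84 arrays and -0.979 and -0.954 on the LA arrays, against 1.26, 1.03 and 1.06 on the LC arrays. All 11 keratins lay below LC in each line, where 10.8%, 14.7% and 21% of all genes lay below LC in L60, L84 and LA. In L84 and LA 9 of 11 fell by limma's unmoderated test in each line, where 0.565% and 1.8% of all genes were called. In L60 0 of 11 did, where 0% of all genes were called. By the same test 9 of 11 had an unadjusted p under 0.05 in L60, against 4.72% of all genes. With moderated variance 0 of 11 were called in each line, and without the 3 arrays high in 18S the whole table held 12 called genes in L84 and 1 in LA. Chac1 was lower in L84 than in LA. For the keratins the order of L84 and LA depended on the summary. Their mean score was slightly lower in LA, and their median difference from LC was -2.12 in L84 and -2.07 in LA. The part of the keratins in the Chac1 difference was not tested.

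**Figure D4:**
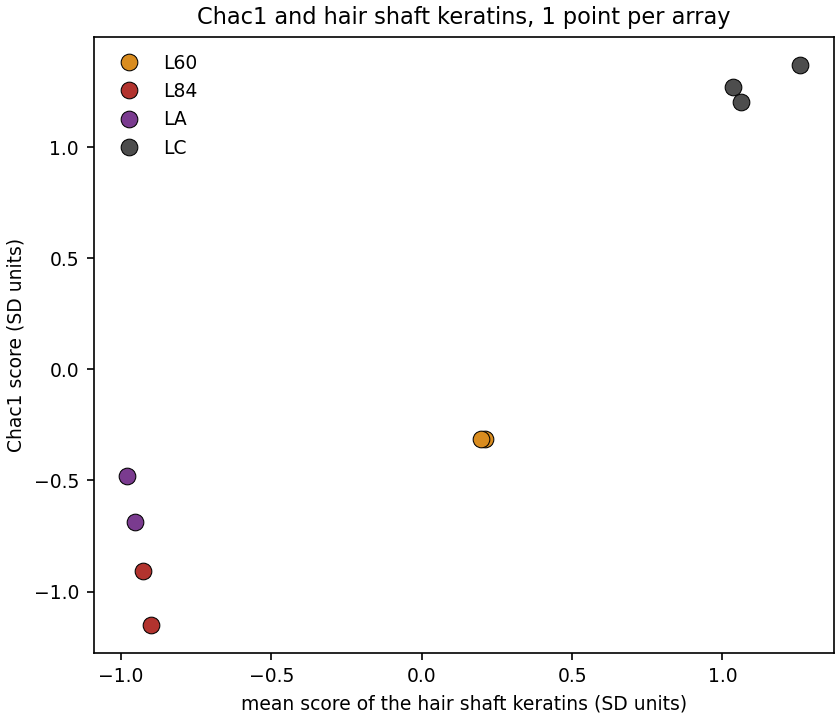
Chac1 score (vertical axis, SD units) against the mean score of 11 hair shaft keratins (horizontal axis, SD units), 1 point per array, coloured by L60, L84, LA and LC. The 3 LC arrays lie at the upper right, the L60 arrays between, and the L84 and LA arrays at the lower left, with LA above L84 for Chac1.

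Wider lists of the pathway were examined for the same pattern. None of their genes passed the test in any line with limma's unmoderated test, so the genes named from here on were chosen after their values were seen. Aminoacyl-tRNA synthetases, which charge transfer RNAs and many of which are Atf4 targets, had lower means in L84 and LA than in LC for all 18 measured genes. Their median difference was -0.298 in L60, -0.874 in L84 and -1.67 in LA, beside all-gene medians of 0.0777, 0.00308 and 0.247. Arrays of the line all lay below LC for 2, 9 and 14 of 18 synthetases, against 10.8%, 14.7% and 21% of all genes. The arrays of a line often lay apart. L84 2 scored below L84 1 for all synthetases but Farsa and Farsb, and LA 2, an array with wide scores, below LA 1 for all but Wars. Tars, for threonine, scored 0.87 on L84 1 and -0.967 on L84 2, against 0.526, 0.423 and 0.327 in LC. At an unadjusted p under 0.05 there were 1, 5 and 11 of 18, against 4.72%, 12.2% and 20.8%, so the L60 counts were close to those shares. Gars, for glycine, scored 0.388 and 0.00305 in L60, 0.0892 and -1.12 in L84 and -1.08 and -1.41 in LA, against 1.21, 0.722 and 1.2 in LC, and its LA difference was -2.29 ± 0.411 (adjusted p = 0.0713). Rars, for arginine, and Iars, for isoleucine, differed by -2.28 and -2.1 in LA (adjusted p = 0.0627 and 0.0668). Iars did not stand lower in L60, where it differed by 0.184.

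Other amino acid transporters and enzymes divided. Of 15 measured, 5, 4 and 4 scored higher and 10, 11 and 11 lower in L60, L84 and LA, with medians of -0.251, -1 and -0.893. At an unadjusted p under 0.05 in limma's unmoderated test there were 1, 6 and 5 of 15, against 4.72%, 12.2% and 20.8% of all genes. Slc3a2, the heavy chain that pairs with both Slc7a11 and Slc7a5, scored 0.0959 and 0.46 in L60, -0.36 and -1.16 in L84 and -0.623 and -1.58 in LA, against 0.876, 1.04 and 1.25 in LC. Every line lay below LC, and the LA difference was -2.16 ± 0.39 (adjusted p = 0.0723). Its partner Slc7a5, a carrier of large neutral amino acids, differed by -1.89 in L84 and -2.09 in LA (adjusted p = 0.195 and 0.0852), whereas its other partner Slc7a11 did not stand apart, as described above. Cth and Cbs, which make cysteine from homocysteine, differed by -2.04 and -1.8 in L84 and by -1.86 and -1.55 in LA (adjusted p = 0.192 and 0.187 in L84, and 0.113 and 0.12 in LA). In L60 Cth differed by -1.54 and Cbs by -0.251. Slc1a5, Gpt2 and Slc6a9 went the other way, with every LA array above LC. They differed in LA by 1.955, 0.869 and 0.901 (limma, adjusted p = 0.219, 0.472 and 0.431). In L84 they differed by 1, 1.68 and 1.04, and in L60 by 1.31, 0.181 and 0.81.

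Glutathione genes, on whose product Chac1 acts, scored on both sides of LC. Of 10 measured, 3, 5 and 5 scored higher in L60, L84 and LA, with medians of -0.255, -0.188 and 0.051. Gclc and Gclm, the catalytic and modifier subunits of the first enzyme of glutathione synthesis, differed by -1.41 and -1.44 in L84 and by -1.96 and -2.08 in LA (adjusted p = 0.306, 0.445, 0.0953 and 0.156). All L84 and LA arrays of both lay below LC. Gpx1, a glutathione peroxidase, differed by 2.09 in L60 (adjusted p = 0.863) and by 1.51 and 1.18 in L84 and LA. Chac2, the relative of Chac1 that degrades glutathione at a slower constant rate, overlapped LC in every line, with differences of 0.135, 0.636 and -0.165.

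**Figure D5:**
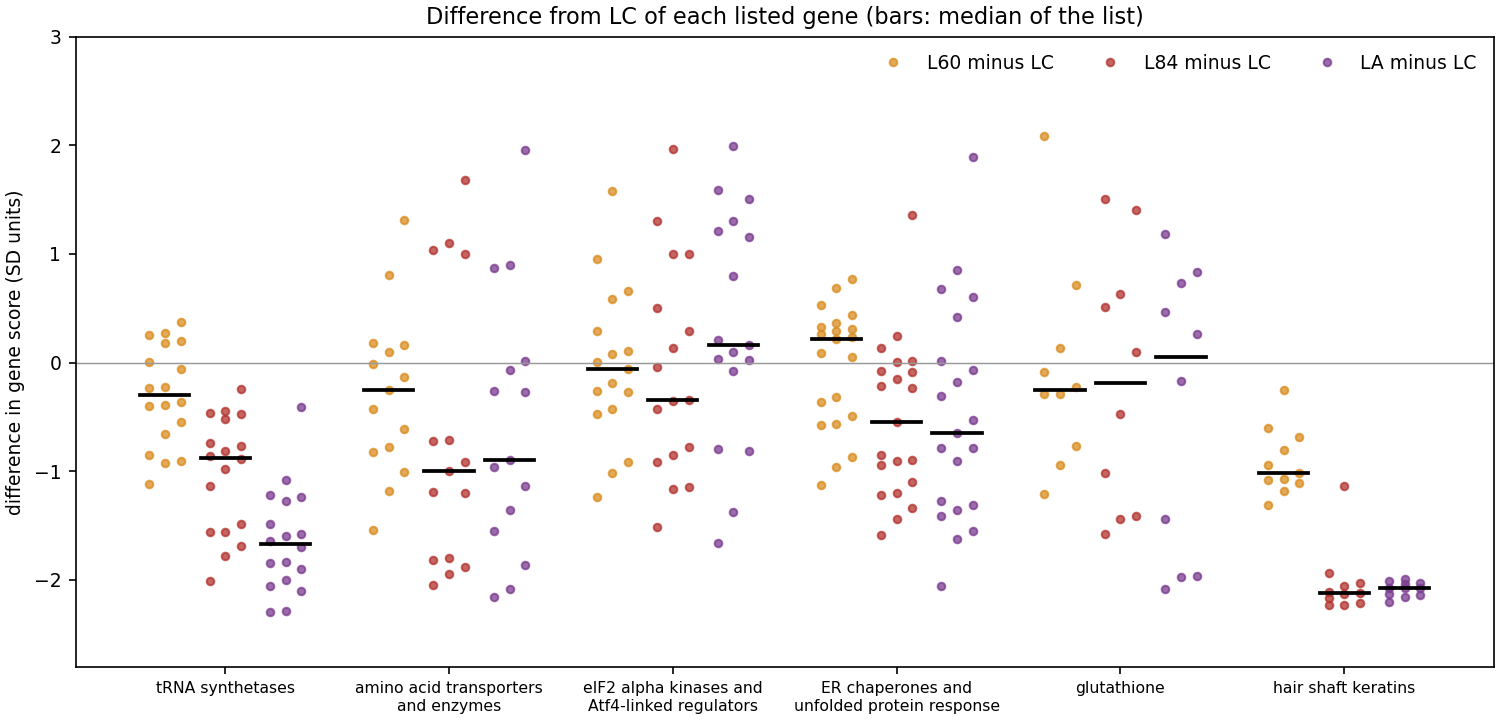
Difference from LC in gene score (SD units, vertical axis) of every measured gene of 5 pathway lists and of the hair shaft keratins; points are genes in L60, L84 and LA and black bars are medians. Synthetases lie below 0 for all 18 genes in L84 and LA (medians -0.874 and -1.67), whereas the glutathione list spreads on both sides of 0.

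Regulators and endoplasmic reticulum genes scored on both sides of LC. Of 17 eIF2 alpha kinases, phosphatases and Atf4-linked regulators, 8, 7 and 12 scored higher in L60, L84 and LA. Nupr1, a stress-induced chromatin protein, scored 0.0162 and -0.294 in L60, 1.59 and 0.155 in L84 and 1.05 and 0.745 in LA, against -1.19, -1.15 and -0.931 in LC, above LC in every line (differences of 0.952, 1.96 and 1.99, adjusted p = 1, 0.203 and 0.103). Of 21 chaperones and unfolded protein response genes, 13, 5 and 6 scored higher, with medians of 0.214, -0.547 and -0.65. Within that list Hspa5, the main chaperone of the endoplasmic reticulum, differed from LC by -0.319 in L60, -1.59 in L84 and -2.06 in LA (adjusted p = 1, 0.217 and 0.0713). Herpud1, a component of the degradation machinery that Atf4 can induce, differed in the other direction by 0.69, 1.36 and 1.89 (adjusted p = 1, 0.432 and 0.159).

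Markers of the cell types in skin also differed between the genotypes. Over all genes, the median differences were 0.0777, 0.00308 and 0.247 in L60, L84 and LA, and 0%, 0.565% and 1.8% were called. The median difference of 11 hair matrix regulators was -0.32, -1.65 and -1.74 in L60, L84 and LA, with 3 of 11 called lower in each of L84 and LA. For 11 skeletal muscle genes it was -0.501, 1.33 and 1.17 and for 11 macrophage and dendritic cell genes 0.491, 0.194 and 1.52, with 1 macrophage or dendritic cell gene called higher in LA. Basal and suprabasal epidermal genes had medians of 0.969, 1.57 and 1.17, with 2 called higher in L84 and 3 in LA. These 9 epidermal genes did not move alike, since 6 had higher and 3 lower means in each line. Fibroblast genes had medians of 0.316, -0.17 and 0.804. For 5 adipocyte genes they were -0.393, -1.52 and -0.966, with 2, 1 and 2 genes higher and 3, 4 and 3 lower. Melanocyte genes had medians of -0.587, -1.84 and -1.71, with 2 called lower in L84 and 3 in LA. With moderated variance none of these calls remained, since 0 genes were called in any line. Mean scores of the macrophage list were -0.754 and 0.705 on the L60 arrays, -0.933 and 0.57 on the L84 arrays and 1.27 and 0.746 on the LA arrays, against -0.638, -0.527 and -0.443 on the LC arrays. The part of these cell types in the scores of the synthetases, transporters and Atf4-linked genes was not tested.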

How the data were processed

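The deposited values are a score for each probe set, and the submitters' processing notes name RMA with no version or role. Values of a probe set average 0 with an SD of 1 across the 9 arrays. Who standardised the scores, and whether they were logarithms first, is not given in the sources used here. In 44.3% of probe sets, and in 7 of the 17 described, values were tied to 5 decimals on some arrays, and a tie inside a genotype makes the spread look smaller. Expression level and fold cannot be recovered, and the number of arrays limits the precision.

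Of 22690 probe sets, 64 were controls, 691 named several genes and 1555 none. Scores of the 20380 that name 1 gene were averaged per gene (12393 genes), and averages of several probe sets have an SD below 1. The model, fitted in limma 3.58.1 (R 4.3.3), had a mean for each of the 4 genotypes and 5 residual degrees of freedom. Contrasts were tested without variance moderation, since standardised scores have no comparable variances. The script was tested on simulated data. The genes, lists and tests were chosen with earlier results of these data known. Named genes were the 9 genes, the 8 most like and 4 least like Chac1 without predicted or clone-named genes, and called list members. No pathway list gene was called, so those named from these lists fall outside the rule and were chosen after their values were seen. Alternatives were each array left out, a replicate block, only the groups compared, moderated variance, single probe sets, arrays left out for 18S or spread, and arrays centred on their medians.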

Additional observations from a re-analysis of the deposited data

Results flagged for a closer look

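Trib3 stood out because every array of L60 lay on 1 side of the control arrays and every array of L84 and LA on the other: its difference from LC was -0.504 for L60, 1.32 for L84 and 0.472 for LA, which was 0.107 without LA 1 and 0.837 without LA 2. This held only for the mean of its 2 probe sets, which correlated at 0.033. Taken singly, both overlapped LC in L84, and the second overlapped LC in every line. The test of the difference itself did not pass (limma, adjusted p = 0.223 for L84 against L60 and 0.228 for LA against L60). LA against L84 gave an adjusted p of 0.439.

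A probe set that names Phgdh together with Gm8096 was not used in the Phgdh score. It scored 1.68 and 0.587 on the L84 arrays, against -0.639, 0.34 and 0.338 on the LC arrays, a difference of 1.12. Its LA arrays scored -0.671 and -1.39, below all LC arrays.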

How the results depend on the processing

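The count of called genes among the 8 tested was 0 in every comparison, and it stayed 0 of 8 under every alternative run, including the replicate block, moderated variance and each array left out (lowest and highest 0). With all arrays, 0%, 0.565% and 1.8% of 12393 genes were called in L60, L84 and LA against LC, and moderated variance called 0 genes. With so few genes called anywhere, a count of 0 among 8 was likely in advance. Its stability therefore says little about these 8 genes. Of 27 differences from LC (9 genes in 3 lines), 17 kept their sign under every alternative, among them all 3 of Chac1 and of Asns. Chac1 was chosen for its fall and its line arrays all lay below LC, so leaving out arrays could not reverse its sign. Of 444 values under alternatives 24 changed sign, all among the 8 tested genes, none of which had passed. Moderated variance, only the compared groups, and leaving out an array outside the comparison cannot change a difference. The 444 therefore include many values that were fixed in advance. The cause of the changes of sign was not tested.

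With each array left out, Atf4 ran from -0.392 to 0.0229 in L60 and from -0.375 to 0.0399 in LA, Psat1 from -0.38 to 0.000913 in L60 and from -0.274 to 2.01 in L84, Atf3 from -0.302 to 0.903 in L60, and Slc7a11 from -0.105 to 0.439, from -1.72 to 1.75 and from -0.876 to 0.725 in L60, L84 and LA. Without the 3 arrays high in 18S, Atf4 stood at 0.0719 in L60 and 0.0399 in LA, Psat1 at 0.0529 in L60 and -0.0317 in L84, and Slc7a11 at -0.0136 in L60. Without the widest arrays Psat1 stood at -0.274 in L84. Single probe sets of opposite sign gave 0.374 for Atf4, 0.0112 for Trib3 and 0.0553 for Psat1 in L60, and 1.58 for Atf4 and -1.26 for Phgdh in LA.

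Arrays with the same number did not all deviate together: over 12 pairs the deviations from the group means correlated at -0.0833 to 0.345, with 5 above 0.1. A line has only 2 arrays, so each pair of lines gave the same value for both numbers, and these counts include repeats. The numbers were not taken as pairs. With the replicate block, which drops LC 3, Atf3 stood at -0.302 in L60 and Slc7a11 at 0.208 in LA, and 3 genes of the whole table were called in L84 and 1 in LA, against 70 and 223 without it. Moderated variance called 0 genes in both. With only the compared groups in the fit the counts were 19 and 38, without the 3 arrays high in 18S they were 12 and 1, and without the widest arrays 51 and 45. With each array left out they ran in L84 from 5 (without LC 2) to 129 (without L84 2) and in LA from 40 (without LA 2) to 306 (without either L84 array), and a lone array of a line was assumed to vary like the other genotypes. Scores carry no signal over background, so no limit from it could be set.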
